A study of Homo sapiens with 15 samples.

Results

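The interaction of glucose and glutamine was measured as the difference between 2 effects of glucose on each gene, namely its effect in cells that had glutamine and its effect in cells that had none. It used 12 of the 15 RNA-seq libraries of the series, which form a 2 by 2 design in H1299, an established line of human non-small cell lung carcinoma. Serum-free RPMI medium was given for 12 h with both nutrients (5 mM glucose, 4 mM glutamine), with 4 mM glutamine alone, with 5 mM glucose alone or with neither, and 3 libraries of poly(A) RNA were made from each medium. No agent other than the nutrients differed between the 4 media, and serum was absent from all of them. The interaction is (both minus glutamine) minus (glucose minus neither) on the log2 scale, so a positive value means that glucose raised a gene more, or lowered it less, where glutamine was present. The same number also tells how far the effect of glutamine depended on glucose. All 16682 genes that passed the low-count filter were tested, of 58395 in the deposited table. The 3 libraries with NH4Cl entered only an alternative fit. The labels describe triplicate cells of 1 line at 1 time without a culture day or a batch. The p-values therefore weigh only differences among these 12 libraries, whose spread may be technical.

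Glucose and glutamine feed shared routes: glucose supplies glycolysis and acetyl units for lipids, and glutamine supplies nitrogen for amino acids, nucleotides and hexosamines as well as carbon for the citric acid cycle. Cells read their supply through several sensors. The transcription factor ATF4 is translated when amino acids run short or the endoplasmic reticulum (ER) is stressed, and it raises amino acid transporters, biosynthetic enzymes and tRNA synthetases. The SREBP factors, held in the ER by INSIG proteins when sterols are plentiful, raise cholesterol and fatty acid synthesis, and heat shock factor raises cytosolic chaperones when proteins misfold.

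Counted reads ran from 15615726 to 19938691 per library, where 3 counts correspond to 0.150 to 0.192 CPM. Levels are reads per 1000000 counted reads, with the library total scaled by TMM (CPM), and fold changes are log2 values from the fit of all 12 libraries. The 10 most abundant genes took 12.3 to 12.4% of counts with neither nutrient and 5.54 to 7.09% in the other media, and the TMM factors with neither were 0.808 to 0.811, against 1.025 to 1.107 elsewhere. Scaled by library totals alone, the median interaction of all genes was lower by 0.334 (log2) and the effect of glucose without glutamine was higher by 0.435. Of the 29 gene lists used here, that scaling turned the sign of the median interaction in 5 (immediate early genes, mitochondrially encoded genes, MondoA and ChREBP targets, ribosome biogenesis and hypoxia targets). It turned the median effect of glucose without glutamine to positive in 7 (SREBP feedback, the ER unfolded protein response, mitosis, lysosome and autophagy, glutamine and proline enzymes, hypoxia targets and the interferon response), and with glutamine in 2 (MondoA and ChREBP targets and the TRiC chaperonin). The markers KRT8, KRT18 and VIM were abundant (the list of 9 epithelial and line markers, 5 of them tested, summed to 2604 to 2706 CPM with both, 3091 to 3138 CPM with glutamine, 2226 to 2291 CPM with glucose and 3780 to 3808 CPM with neither). Most of that sum was VIM, which averaged 2031 CPM with both. KRT19 and KRT7 averaged only 1.07 to 2.46 CPM across the media, and EPCAM, CDH1, NKX2-1 and SFTPC 0 to 0.468 CPM. Summed fibroblast, endothelial and leukocyte markers stayed at or under 3.30, 18.8 and 7.97 CPM, with 2 of 7, 1 of 7 and 1 of 9 genes tested, and their part in the results was not tested. In bulk RNA, fewer cells of a kind and less RNA per cell cannot be told apart.

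The effect of glucose differed with glutamine for most genes. Of 16682 genes, 12559 (75.3%) had an interaction past the threshold (edgeR's quasi-likelihood F test, Benjamini-Hochberg adjusted p under 0.05), 6189 of them positive (37.1%) and 6370 negative (38.2%); with library totals alone the split was 4329 positive and 8402 negative. An interaction of at least 1 on the log2 scale was called positive for 2604 genes (15.6%) and negative for 3328 (19.9%), against 1563 and 4671 genes with library totals alone. The median interaction over all genes was -0.027, 90% of genes lay between -2.31 and 1.78, and the median SE was 0.112. Glucose itself raised 5466 genes (32.8%) and lowered 5580 (33.4%) where glutamine was present, and raised 6641 (39.8%) and lowered 6390 (38.3%) where it was absent. With library totals alone the share of higher calls moved to 60.7% of calls with glutamine, against 49.5% with TMM, and to 73.9% of calls without glutamine, against 51.0% with TMM.

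Both effects often pointed in opposite directions. Among positive interactions, glucose raised the gene with glutamine and lowered it without in 2637 of 6189 (42.6%), and among negative ones it did the reverse in 2569 of 6370 (40.3%). With an interaction of at least 1, the shares were 1654 of 2604 (63.5%) and 1740 of 3328 (52.3%). In 1353 positive and 1904 negative interactions the effect passed the threshold without glutamine but not with it, and in 749 and 651 it passed with glutamine but not without. A further 1163 positive interactions were genes that glucose lowered in both settings, all of them more strongly without glutamine. These directions were counted with TMM scaling and not recounted with library totals alone. Library totals alone raised the effect of glucose without glutamine by a median of 0.435. Across genes the 2 effects, which share no library, correlated little (Pearson r = -0.115, Spearman rho = -0.131, 16682 genes, which are not independent replicates). The sign of the interaction on mean CPM was opposite to that on the log2 scale for 10 of the 6189 positive and 29 of the 6370 negative calls.

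**Figure D1:**
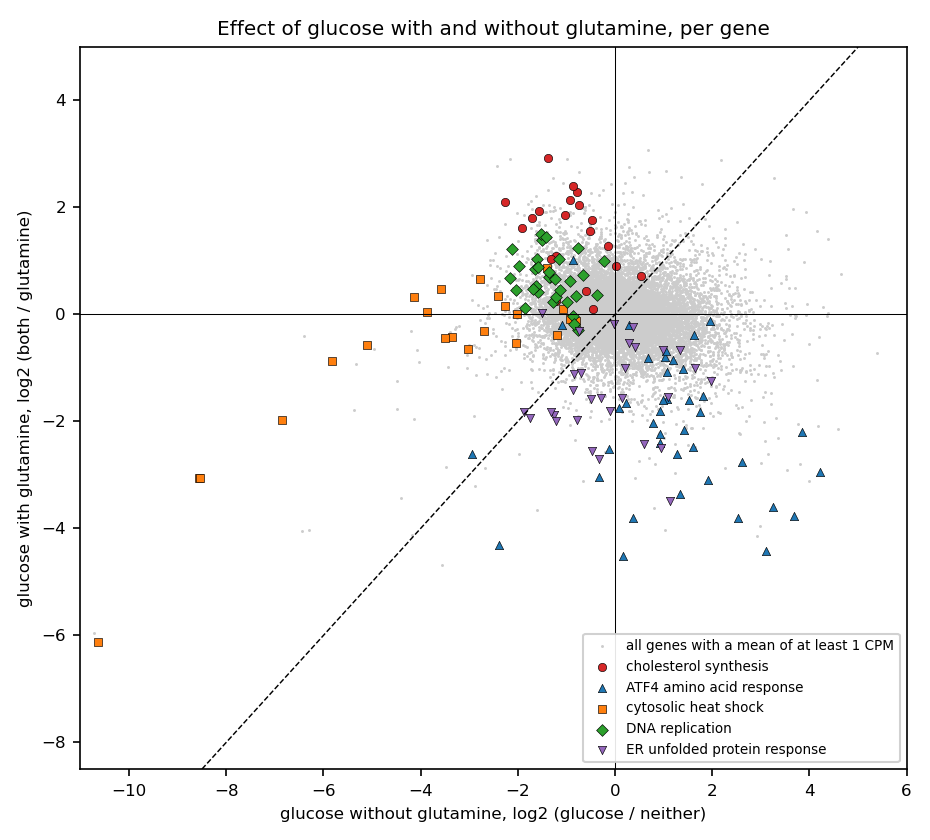
Each point is a gene: the effect of glucose where glutamine was absent (x, log2 of glucose over neither) against its effect where glutamine was present (y, log2 of both over glutamine); the dashed line marks equal effects, and genes above it have a positive interaction. Cholesterol synthesis genes lie mostly in the upper left (18 of 20), ATF4 genes mostly in the lower right, and heat shock genes spread to the left.

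Where 1 medium stood apart, it was most often the one with neither nutrient. A medium was counted as apart when its mean log2 level (0.2 CPM added) lay outside those of the other 3 by at least 2 times their range. Among interactions of at least 1, neither stood apart below for 651 genes and above for 230, glucose alone above for 124 and below for 119, both above for 89 and below for 42, and glutamine alone above for 58 and below for 66. The remaining 2100 positive and 2453 negative ones had no such medium. These levels use TMM scaling, whose factor differed most for neither, and the counts were not repeated with library totals alone. Antisense genes and long intergenic RNAs leaned to negative interactions: 338 of 880 antisense genes (38.4%) and 312 of 738 long intergenic RNAs (42.3%) had one of at least 1 size, against 2128 of 13123 protein-coding genes (16.2%), while positive ones were 82 (9.32%), 68 (9.21%) and 2212 (16.9%). The genes with large negative interactions were also lower in level, with a median of 5.01 CPM over the 12 libraries, against 17.9 CPM for large positive ones and 17.0 CPM for all genes. Since the sources used here do not say how strand was counted, reads of an antisense gene and of its partner may not be separated.

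**Figure D2:**
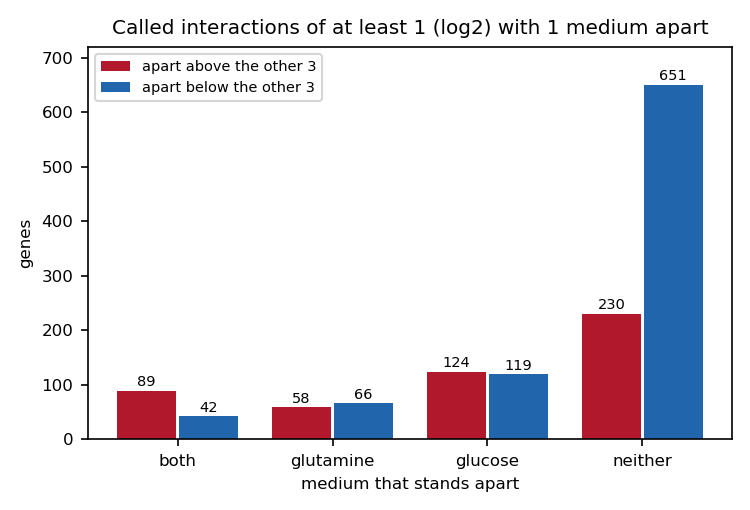
Bars count the genes with a called interaction of at least 1 (log2) in which 1 medium stood apart from the other 3, above them in red and below them in blue. With TMM scaling the highest bar is neither below, with 651 genes.

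Another way to sort the genes, chosen after their values were seen, was to ask whether both single-nutrient media lay at least 1 (log2) above, or below, both and neither. Above lay 145 genes (0.869% of those tested) and below 66 (0.396%). The ATF4 list held 12 of the first kind among its 40 tested genes, among them TRIB3, SLC7A11, PCK2 and GDF15. The cholesterol list held 4 of the second kind among 20 (among them ACAT2, IDI1 and EBP), the SREBP list 2 of 11 (INSIG1 among them) and the DNA replication list 5 of 32 (MCM3, MCM4, MCM6, PCNA and FEN1).

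Nearly all sterol synthesis genes had a positive interaction. Glucose raised 19 of 20 cholesterol synthesis genes where glutamine was present, against 32.8% of all genes. It lowered 18 of 20 where glutamine was absent, against 38.3%. Of the 20 genes, 19 had a positive interaction and 0 a negative one, against 37.1% and 38.2% of all genes. The list's median effect of glucose was 1.69 with glutamine and -0.897 without, and its median interaction was 2.57, against -0.027 over all genes. Summed over the list, the level was 3498 to 3561 CPM with both, 1010 to 1021 CPM with glutamine, 689 to 710 CPM with glucose and 1447 to 1457 CPM with neither. INSIG1 (chr7:155297776-155310235, GRCh38), which retains SREBP in the ER and is itself an SREBP target, had 324, 317 and 312 CPM with both, 43.5, 48.7 and 45.9 CPM with glutamine alone, 29.8, 28.7 and 32.7 CPM with glucose alone and 164, 160.5 and 164 CPM with neither. Both single-nutrient media were low and no 2 media overlapped. Glucose thus changed INSIG1 by 2.78 with glutamine and -2.42 without it, an interaction of 5.21 ± 0.053 (SE) with an adjusted p of 8e-135.

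IDI1, an isomerase of the isoprenoid steps, was also low in both single-nutrient media. It measured 283, 284 and 284 CPM with both, 35.8, 38.1 and 37.8 CPM with glutamine alone, 34.7, 34.2 and 34.7 CPM with glucose alone and 89.7, 88.7 and 90.0 CPM with neither, with effects of 2.93 with glutamine and -1.37 without it and an interaction of 4.30 ± 0.054 (SE). ACAT2, which condenses acetyl-CoA, had an interaction of 3.52 (1.80 with and -1.72 without glutamine), and FDFT1, squalene synthase, one of 3.50 (1.94 with and -1.56 without glutamine). In 3 others the medium with both stood apart above the rest: HMGCS1, the HMG-CoA synthase, had means of 358, 73.1, 40.5 and 69.8 CPM with both, glutamine, glucose and neither, MSMO1 127, 30.8, 22.3 and 37.2 CPM and LSS, lanosterol synthase, 328, 96.6, 53.8 and 74.6 CPM in that order. HMGCS1 had an interaction of 3.08 (2.29 with and -0.79 without glutamine). MSMO1 had 2.78 (2.05 with and -0.74 without glutamine) and LSS 2.23 (1.76 with and -0.47 without glutamine). TM7SF2, a sterol reductase, was the only cholesterol gene without a call: glucose raised it by 0.72 with glutamine and 0.53 without it, and its interaction was 0.19 ± 0.11 (SE).

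Genes that sense or import sterol and make fatty acids followed in part. Of 11 SREBP feedback and uptake genes 8 were positive and 3 negative, against 37.1% and 38.2% of all genes. SREBF1, an SREBP gene, had an interaction of 1.30 (1.06 with and -0.25 without glutamine), its relative SREBF2 one of 0.82 (0.49 with and -0.32 without glutamine) and TMEM97 one of 1.66 (0.30 with and -1.35 without glutamine). The site proteases that cut SREBP lay on the other side, with -0.46 (-0.029 with and 0.43 without glutamine) for MBTPS1 and -1.11 (-0.47 with and 0.64 without glutamine) for MBTPS2. Of 21 fatty acid genes 16 were positive and 3 negative, with a median interaction of 0.772; both lists' median effect of glucose without glutamine was negative (-0.321 and -0.494), but with library totals alone that of the SREBP list turned positive (0.114) and that of the fatty acid list was -0.0591. With that scaling 14 fatty acid genes had a positive interaction and 6 a negative one, with a median of 0.438. FASN, fatty acid synthase, had 2085, 2017 and 1954 CPM with both, 430.0, 443 and 438 CPM with glutamine alone, 172, 177 and 177 CPM with glucose alone and 539, 544 and 537 CPM with neither. Both was highest in every library and glucose alone lowest, and the effects were 2.21 with glutamine and -1.62 without it, with an interaction of 3.83 ± 0.028 (SE). SCD, which desaturates stearate, had an interaction of 2.86 (1.92 with and -0.94 without glutamine), ACLY, which makes acetyl-CoA from citrate, 2.56 (1.41 with and -1.14 without glutamine), and FADS1, a fatty acid desaturase, 1.83 (1.16 with and -0.68 without glutamine). The 3 negative genes were ACACB, the mitochondrial acetyl-CoA carboxylase, with -0.86 (0.19 with and 1.06 without glutamine), MID1IP1, which binds that enzyme family, with -2.06 (-1.06 with and 1.00 without glutamine), and GPAM, which adds the first acyl chain to glycerol phosphate, with -0.62 (0.021 with and 0.64 without glutamine). ME1 and DGAT1 were not called, at -0.13 ± 0.095 (SE) and -0.14 ± 0.085 (SE).

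The ATF4 list ran the other way and held several of the largest negative interactions among genes averaging 10 CPM or more. Of 40 tested genes 37 were negative and 3 positive, against 38.2% and 37.1% of all genes. Glucose lowered 38 where glutamine was present, against 33.4% of all genes, and raised 34 where it was absent, against 39.8%. The median effect was -2.09 with glutamine and 1.07 without, and the median interaction -2.77. The summed level of the list was 2732 to 2774 CPM with both, 8432 to 8439 CPM with glutamine, 11059 to 11198 CPM with glucose and 7414 to 7445 CPM with neither. TRIB3 (chr20:362835-397559, GRCh38), a pseudokinase that feeds back on ATF4, had 30.6, 29.8 and 27.2 CPM with both, 350.0, 358 and 353 CPM with glutamine alone, 638, 647 and 643 CPM with glucose alone and 67.5, 68.8 and 66.0 CPM with neither. Each single-nutrient medium lay above both and neither with no overlap, and the effects of -3.60 with glutamine and 3.25 without it gave an interaction of -6.85 ± 0.046 (SE) with an adjusted p of 3.4e-162. SLC7A11, the cystine transporter, had 15.8, 17.9 and 15.4 CPM with both, 127, 123 and 127 CPM with glutamine alone, 276, 268 and 277 CPM with glucose alone and 13.5, 15.2 and 15.7 CPM with neither. Its libraries with both and with neither overlapped, while those with 1 nutrient were far above, and its interaction was -7.16 (-2.94 with and 4.22 without glutamine).

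Other genes of this kind were among the 12 largest negative interactions of all genes with at least 10 CPM. GDF15, a stress-induced cytokine, had means of 1.11, 23.7, 37.0 and 4.28 CPM with both, glutamine, glucose and neither and an interaction of -7.53 (-4.41 with and 3.11 without glutamine). SLC6A9, a glycine transporter, had -7.46 (-3.78 with and 3.68 without glutamine), ALDH1L2, a mitochondrial folate dehydrogenase, -6.04 (-2.19 with and 3.85 without glutamine), PCK2, the mitochondrial phosphoenolpyruvate carboxykinase, -5.38 (-2.76 with and 2.62 without glutamine), and ADM2, a peptide hormone, -6.60 (-2.80 with and 3.80 without glutamine). LURAP1L at -7.10 (-3.11 with and 3.99 without glutamine), RAB39B at -5.76 (-2.61 with and 3.15 without glutamine) and AKNA at -5.44 (-2.36 with and 3.08 without glutamine) completed the named protein-coding genes. SLC9A3-AS1, an antisense gene, had -6.26 (-2.09 with and 4.17 without glutamine), and ASNSP1, a pseudogene of asparagine synthetase, -6.93 (-3.95 with and 2.98 without glutamine); both are uncertain because reads may come from a partner or a near-identical copy. ASNS itself had -4.69 (-3.36 with and 1.33 without glutamine).

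ATF4 and its partner CHOP did not share the shape of TRIB3. ATF4 mRNA was 169, 169 and 170.2 CPM with both, 544, 533 and 528 CPM with glutamine alone, 589, 598 and 610.5 CPM with glucose alone and 518, 504 and 519 CPM with neither. It was low with both and far higher in the other 3 media, which lay close together. Glucose changed it by -1.66 with glutamine and 0.22 without it, an interaction of -1.88 ± 0.03 (SE). DDIT3, which encodes CHOP, had 10.4, 10.4 and 12.0 CPM with both, 242, 254 and 255 CPM with glutamine alone, 179.7, 179.5 and 183 CPM with glucose alone and 162, 166 and 159.5 CPM with neither. Its level with both stood far below the other 3, and its interaction was -4.67 (-4.52 with and 0.15 without glutamine). CHAC1, a glutathione-degrading enzyme, DDIT4, an inhibitor of mTORC1, and SLC3A2, the partner chain of amino acid exchangers, had both apart below as well, with interactions of -4.18 (-3.81 with and 0.37 without glutamine), -2.69 (-3.03 with and -0.34 without glutamine) and -2.38 (-2.52 with and -0.13 without glutamine). SESN2, a leucine sensor of the stress response, had -4.99 (-3.09 with and 1.91 without glutamine) and MTHFD2, a mitochondrial folate enzyme, -3.16 (-2.24 with and 0.92 without glutamine). The positive exceptions were ATF5 at 1.88 (1.02 with and -0.86 without glutamine), ALDH18A1, the first enzyme of proline synthesis, at 0.91 (-0.19 with and -1.10 without glutamine), and PPP1R15A, a phosphatase subunit that reverses the stress signal, at 0.33 (-2.62 with and -2.95 without glutamine), which turned to -0.0017 and lost its call with library totals alone.

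Amino acid transporters and folate enzymes split by gene. Of 18 transporters 13 were negative and 5 positive, against 38.2% and 37.1% of all genes. Opposite effects of glucose were called for 16, against 5206 of all 16682 genes. Beside SLC7A11 and SLC6A9, SLC7A5, which imports leucine, had an interaction of -3.56 (-1.81 with and 1.75 without glutamine) and SLC38A1, a glutamine importer, -2.11 (-0.66 with and 1.45 without glutamine). The taurine transporter SLC6A6 had 1.26 (0.38 with and -0.88 without glutamine) and SLC7A6 1.195 (0.66 with and -0.54 without glutamine). Of 14 serine and one-carbon genes 9 were negative, among them PHGDH, the first enzyme of serine synthesis, with -3.12 (-1.59 with and 1.53 without glutamine) and PSAT1 with -2.67 (-1.59 with and 1.07 without glutamine). The 5 positive ones, a share near the 37.1% of all genes, included TYMS, which makes thymidylate, with 2.47 (0.89 with and -1.58 without glutamine). Among 19 glutamine and proline genes 10 were negative and 7 positive, against 38.2% and 37.1% of all genes, so the positive share was near that background. Cytosolic aspartate aminotransferase GOT1 had -3.71 (-2.12 with and 1.59 without glutamine), its mitochondrial counterpart GOT2 1.61 (0.17 with and -1.44 without glutamine), PYCR1, which completes proline synthesis, -2.81 (-2.02 with and 0.79 without glutamine), GFPT1, the entry to the hexosamine pathway, -1.86 (-0.70 with and 1.16 without glutamine), and CTPS1, which makes CTP, 1.26 (-0.10 with and -1.37 without glutamine). GLUD1 and GFPT2 were not called, at 0.021 ± 0.034 (SE) and 0.069 ± 0.21 (SE).

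The cytosolic aminoacyl-tRNA synthetases, which charge tRNAs with amino acids, differed in the sign of their interaction. Glucose lowered 19 of 20 where glutamine was present, against 33.4% of all genes. Where glutamine was absent glucose raised 12 and lowered 8, against 39.8% and 38.3% of all genes. The lowered share there was near that background. Of the 20 interactions 12 were negative and 7 positive, against 38.2% and 37.1% of all genes, so the positive share was near that background. AARS1, for alanine, had 243, 246 and 239.8 CPM with both, 986, 999.7 and 1014 CPM with glutamine alone, 693, 712 and 696 CPM with glucose alone and 294, 292 and 293 CPM with neither. Both was lowest, glutamine alone highest, and the interaction was -3.30 (-2.04 with and 1.26 without glutamine). KARS1, for lysine, had 307, 317 and 302 CPM with both, 392, 386 and 393 CPM with glutamine alone, 229.8, 234 and 238 CPM with glucose alone and 612, 616 and 616 CPM with neither. There neither was highest and glucose alone lowest, and the interaction was 1.05 (-0.34 with and -1.39 without glutamine). WARS1, GARS1 and IARS1 joined AARS1 with interactions of -3.31, -2.57 and -2.13, and FARSA joined KARS1 with 1.498 (-0.27 with and -1.77 without glutamine). With library totals alone 14 were negative and 5 positive.

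**Figure D3:**
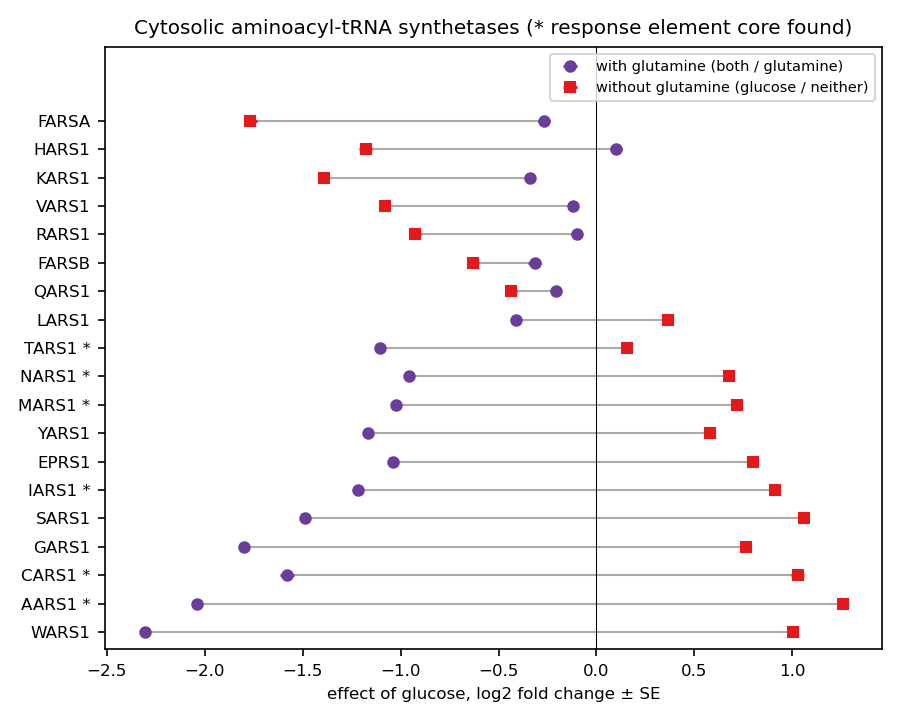
Effects of glucose with glutamine (circles, both over glutamine) and without it (squares, glucose over neither) for the 19 cytosolic aminoacyl-tRNA synthetases with a called interaction, as log2 fold change ± SE from the fit; the lines join the 2 effects of a gene. The 12 genes at the bottom, from WARS1 to LARS1, have a square to the right of 0 and a circle to its left, and a star marks the 6 promoters that hold the response element core.

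The core of the amino acid response element, TGATGNAA on either strand, was searched for in RefSeq promoters (GRCh38.p14, 250 bases before to 50 after the start), which matched 11511 of the tested genes by symbol. It was found in 187 of all promoters (1.62%), in 6 of 16 synthetase promoters and in 5 of 32 ATF4 list promoters. All 6 belonged to the 10 synthetases with a negative interaction and a promoter, and 0 to the 6 with a positive one. A match is a description of these letters and not a site of binding. The windows below show the 6 matches, read 5′ to 3′ on the strand of the gene with the match in capitals, at chr16:70289675-70289704 (minus strand) for AARS1, chr11:3057407-3057436 (minus strand) for CARS1, chr9:92293692-92293721 (minus strand) for IARS1, chr12:57488053-57488082 (plus strand) for MARS1, chr18:57621804-57621833 (minus strand) for NARS1 and chr5:33440956-33440985 (plus strand) for TARS1. The interactions of these genes were -3.30, -2.61, -2.13, -1.74, -1.64 and -1.26 in that order.
AARS1: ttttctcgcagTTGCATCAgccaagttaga
CARS1: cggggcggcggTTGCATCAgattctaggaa
IARS1: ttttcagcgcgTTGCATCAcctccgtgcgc
MARS1: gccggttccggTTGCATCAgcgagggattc
NARS1: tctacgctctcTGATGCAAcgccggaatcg
TARS1: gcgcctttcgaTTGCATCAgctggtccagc

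ER chaperones and degradation genes, summed over their list, were highest in glutamine without glucose. Members were not counted by their highest medium, and SEC61B, for example, was highest with neither. Glucose lowered 29 of 30 members of the ER unfolded protein response list where glutamine was present, against 33.4% of all genes. Where glutamine was absent 11 rose and 15 fell, against 39.8% and 38.3%, so the share that rose was near that background. Of the 30, 27 had a negative interaction and 2 a positive one, against 38.2% and 37.1% of all genes, with a median of -1.14. The list's median effect without glutamine was -0.20 and turned to 0.235 with library totals alone. Summed over the list, the level was 4384 to 4440 CPM with both, 19884 to 20050 CPM with glutamine, 5830 to 5932 CPM with glucose and 5968 to 6012 CPM with neither. HSPA5 (chr9:125234853-125241330, GRCh38), the main ER chaperone, also called BiP, had 569, 563 and 539.7 CPM with both, 6222, 6213 and 6254 CPM with glutamine alone, 2262, 2320 and 2295 CPM with glucose alone and 1046, 1036 and 1042 CPM with neither. All 4 media were separate, with glutamine alone highest and both lowest, and glucose changed HSPA5 by -3.48 with glutamine and 1.14 without it, an interaction of -4.62 ± 0.022 (SE). HSP90B1, the ER member of the HSP90 family, had 778, 774 and 773 CPM with both, 4515, 4586 and 4596 CPM with glutamine alone, 646, 663 and 673 CPM with glucose alone and 922, 902 and 917 CPM with neither. Glutamine alone stood apart above the other 3, and the interaction was -2.09 (-2.56 with and -0.47 without glutamine).

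Members of the list differed in sign where glutamine was absent. HYOU1, a chaperone, had -3.44 (-2.50 with and 0.95 without glutamine) and SEL1L, part of the ER degradation complex, -2.63 (-1.54 with and 1.09 without glutamine). DNAJC3, a cochaperone, and CRELD1, which is outside the list, had glutamine alone apart above, with -1.71 (-1.81 with and -0.10 without glutamine) and -3.24 (-2.21 with and 1.03 without glutamine). SEC61B, a subunit of the translocation channel, and SEC24D, a coat protein, were positive, at 1.53 (0.031 with and -1.49 without glutamine) and 0.43 (-0.30 with and -0.73 without glutamine), of which SEC24D lost its call with library totals alone. SDF2L1, an ER cochaperone, was not called although both effects were strong: it averaged 27.5 ± 0.675 CPM with both, 97.4 ± 0.675 CPM with glutamine alone, 11.3 ± 2.02 CPM with glucose alone and 41.4 ± 1.14 CPM with neither (SD, n = 3), and glucose changed it by -1.82 with glutamine and -1.88 without it, an interaction of 0.05 ± 0.086 (SE).

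A pair of CCAAT and CCACG with 9 bases between them, the form of the ER stress response element, was found in 14 of the 11511 promoters (0.122%) and in 7 of 26 promoters of the ER list (HSPA5, HSP90B1, CALR, CANX, ERO1B, CRELD2 and XBP1). The stretch of 120 bases before the start of HSPA5 (chr9:125241344-125241463, minus strand, GRCh38.p14, RefSeq) is shown because this gene had the largest interaction of the list; capitals mark the pair, which starts at position -66.
HSPA5: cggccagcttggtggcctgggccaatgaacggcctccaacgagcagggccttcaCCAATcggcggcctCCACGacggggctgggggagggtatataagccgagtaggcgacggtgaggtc

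Cytosolic chaperones, summed over their list, were highest in cells with neither nutrient. All 23 tested heat shock genes had a positive interaction, against 37.1% of all genes, with a median of 2.94. Glucose lowered all 23 where glutamine was absent, against 38.3% of all genes, with a median of -3.03. With glutamine it lowered 13 and raised 7, against 33.4% and 32.8% of all genes, with a median of -0.319. The raised share was near that background. The summed level was 17283 to 17519 CPM with both, 24162 to 24268 CPM with glutamine, 8635 to 8794 CPM with glucose and 116384 to 117745 CPM with neither. DNAJB1 (chr19:14514770-14529770, GRCh38), a cochaperone of HSP70, had 285, 292 and 286 CPM with both, 522, 521 and 534 CPM with glutamine alone, 149, 151 and 154 CPM with glucose alone and 8555, 8603 and 8662 CPM with neither. The 3 libraries with neither stood far above the other 9, and glucose changed it by -0.87 with glutamine and -5.83 without it, an interaction of 4.96 ± 0.024 (SE). BAG3, an HSP70 cofactor, had neither apart above in the same way, with 4.53 (-0.58 with and -5.11 without glutamine), and DNAJA1 had 4.45 (0.32 with and -4.13 without glutamine).

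The HSP70 genes were also raised in glutamine without glucose. HSPA1A had 376, 374 and 372 CPM with both, 3115, 3161 and 3107 CPM with glutamine alone, 62.4, 67.6 and 64.7 CPM with glucose alone and 24049, 24562 and 25131 CPM with neither. Neither was highest, glutamine alone came next and glucose alone was lowest, so that glucose lowered it in both settings (-3.06 with glutamine and -8.57 without it) and the interaction of 5.50 ± 0.023 (SE) came from a larger fall without glutamine. HSPA1A and HSPA1B, whose coding sequences are nearly identical so that reads could be split between them, together took 0.0775 to 0.0792% of counts with both, 0.608 to 0.611% with glutamine, 0.0136 to 0.0142% with glucose and 3.80 to 3.89% with neither. HSPA1B had an interaction of 5.49 (-3.06 with and -8.55 without glutamine) and HSPA6, a strictly inducible member, 4.52 (-6.12 with and -10.63 without glutamine). HSPA7, the pseudogene of HSPA6, is uncertain for the same reason and had only 5 counts in all with both and 4 with glucose, at 4.76 (-5.96 with and -10.72 without glutamine). HSP90AA1, the inducible cytosolic HSP90, had 6180, 6182 and 6097 CPM with both, 4396, 4459 and 4420 CPM with glutamine alone, 1998, 2008 and 2029 CPM with glucose alone and 24301, 23999 and 24238 CPM with neither. Glucose raised HSP90AA1 where glutamine was present and lowered it where it was absent, an interaction of 4.06 (0.48 with and -3.59 without glutamine). The processed pseudogene HSP90AA2P had 4.05 (0.46 with and -3.595 without glutamine). That value is uncertain because its reads may come from HSP90AA1. HSPA8, the constitutive HSP70, had 2.94 (-0.42 with and -3.36 without glutamine). The heat shock element core TTCNNGAA (either strand) was in 5 of 20 promoters of the list and in 671 of all 11511 (5.83%). The sterol regulatory element TCACNCCAC (either strand) was in 0 of 15 promoters of the cholesterol list, in 1 of 10 of the SREBP list and in 116 of all 11511 (1.01%). A missing match says only that these letters are not in the window.

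**Figure D4:**
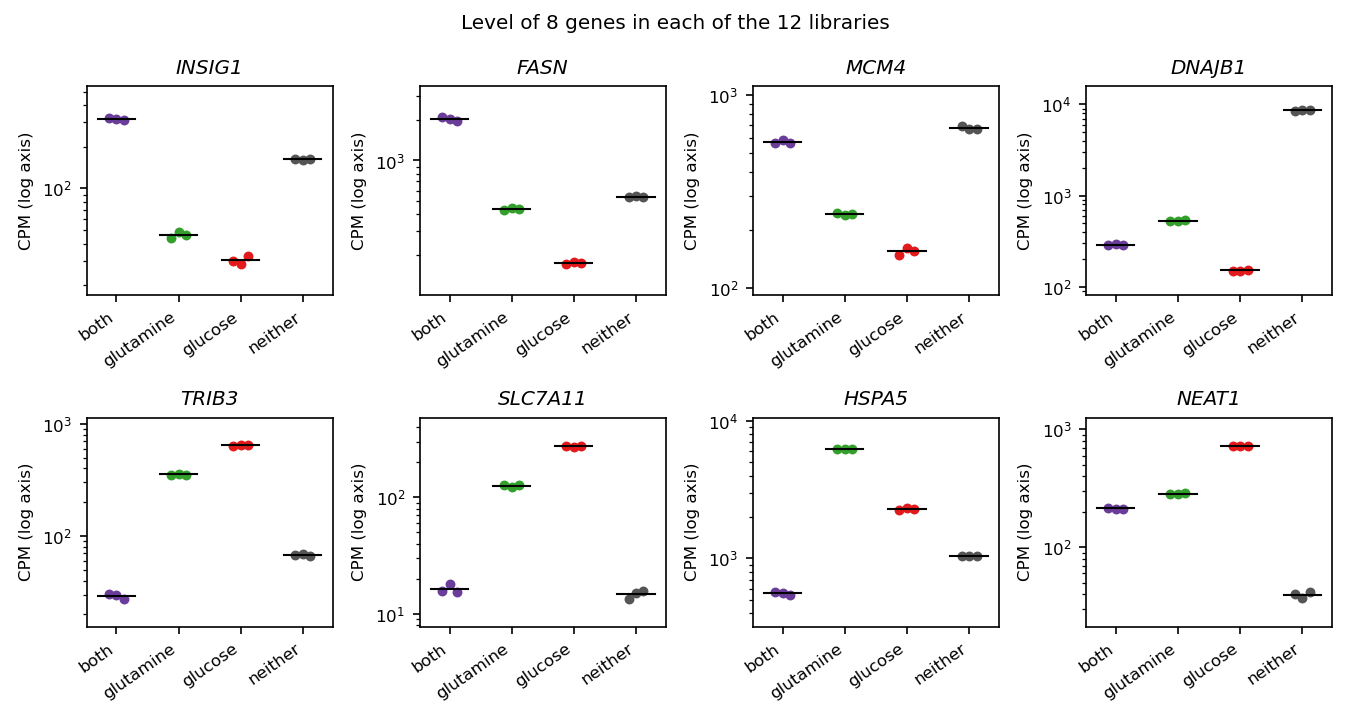
Level (CPM, log axis) of 8 genes in each library of the 4 media, with a bar at the mean of 3 libraries. INSIG1 and MCM4 are low in both single-nutrient media, TRIB3 and SLC7A11 are high there, HSPA5 is highest with glutamine alone, DNAJB1 is highest and NEAT1 lowest with neither.

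Cell cycle and growth machinery shared the sign of the sterol genes. All 32 DNA replication genes had a positive interaction (median 2.02), against 37.1% of all genes, of which 38.2% had a negative one. Glucose raised 29 replication genes where glutamine was present, against 32.8% of all genes. It lowered all 32 where glutamine was absent, against 38.3%. Opposite effects were called for 29, against 5206 of all 16682 genes. MCM4, a subunit of the replicative helicase, had 566, 581 and 563 CPM with both, 245, 240.4 and 243 CPM with glutamine alone, 149, 161 and 155 CPM with glucose alone and 687, 663 and 662 CPM with neither. Both single-nutrient media were low, glucose alone lowest, and the interaction was 3.35 (1.23 with and -2.12 without glutamine). MCM3, MCM2 and MCM7, of the same helicase, had 2.90 (1.39 with and -1.51 without glutamine), 2.50 (0.46 with and -2.04 without glutamine) and 2.04 (0.70 with and -1.33 without glutamine). Of 22 mitosis genes 21 were positive and 0 negative, with a smaller median of 0.853. With library totals alone 17 mitosis genes were positive and 4 negative, with a median of 0.519. CCNB1, the mitotic cyclin, had 1.51 (0.80 with and -0.70 without glutamine), BIRC5, survivin, 1.43 (0.82 with and -0.61 without glutamine), TPX2, a spindle factor, 1.22 (0.39 with and -0.83 without glutamine), and CDC20, which activates the anaphase complex, 1.18 (0.052 with and -1.13 without glutamine). CENPE, a kinetochore motor, was not called at -0.043 ± 0.045 (SE), with effects of 0.59 with glutamine and 0.63 without it. The median effect of glucose on mitosis genes without glutamine was -0.234 and turned to 0.201 with library totals alone.

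Proteasome, chaperonin, respiratory and glycolytic genes moved in the same sense. Over all genes 37.1% had a positive interaction and 38.2% a negative one. Glucose lowered 38.3% of all genes where glutamine was absent and raised 32.8% where it was present. All 27 proteasome genes were positive (median 1.52), with glucose lowering all 27 without glutamine and raising 20 with it; PSMB6, a catalytic subunit, had 2.46 (0.29 with and -2.17 without glutamine), PSMD1 2.03 (0.44 with and -1.59 without glutamine), PSMC4 1.89 (0.21 with and -1.68 without glutamine) and PSMD2 1.84 (0.30 with and -1.54 without glutamine). All 8 subunits of TRiC, the chaperonin that folds actin and tubulin, were positive (median 1.23), among them CCT5 with 1.72 (0.14 with and -1.57 without glutamine) and TCP1 with 1.496 (-0.056 with and -1.55 without glutamine). Of 39 nuclear genes of oxidative phosphorylation 37 were positive and 0 negative (median 1.12). ATP5MC1, of the membrane ring of ATP synthase, had 2.42 (1.09 with and -1.34 without glutamine) and COX7A2, of cytochrome oxidase, 1.44 (0.52 with and -0.91 without glutamine), while NDUFS1, of complex I, was not called at 0.08 ± 0.041 (SE) and neither was NDUFV2, near 1 CPM, at -0.092 ± 0.51 (SE). Of 21 glycolysis genes 19 were positive (median 1.01) and 20 fell with glucose where glutamine was absent. LDHA, lactate dehydrogenase, had 2.40 (0.91 with and -1.49 without glutamine), PGAM1 2.12 (0.62 with and -1.501 without glutamine), TPI1 1.90 (0.39 with and -1.52 without glutamine) and PKM, pyruvate kinase, 1.68 (0.52 with and -1.15 without glutamine). The 2 negative ones were HK2, a hexokinase, with -1.18 (-1.05 with and 0.13 without glutamine), and SLC2A3, a glucose transporter, with -0.91 (-1.45 with and -0.54 without glutamine).

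Mitochondrially encoded genes did not follow their nuclear partners. Of 13, 6 were positive, 3 negative and 4 not called, and no interaction reached 1. Over all genes the shares were 37.1% positive and 38.2% negative. The median of 0.144 turned to -0.19 with library totals alone. MT-ND4 had 0.85 (0.36 with and -0.48 without glutamine) and MT-ND1 -0.66 (-0.17 with and 0.50 without glutamine), both subunits of complex I, and MT-CO3, of cytochrome oxidase, was not called at 0.05 ± 0.031 (SE), with effects of 0.80 with glutamine and 0.75 without it.

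Cytosolic ribosomal proteins fell with glucose in both settings. Of 57 tested genes glucose lowered 55 with glutamine and all 57 without, and none had opposite effects. Over all genes 33.4% were lowered with glutamine and 38.3% without, and 5206 of 16682 had opposite effects. Positive interactions numbered 54, against 37.1% of all genes, with a median of 0.457. With library totals alone 39 were positive and 11 negative, with a median of 0.123, so the sign for part of these genes rests on the scaling. RPL38 had 1.02 (0.0014 with and -1.02 without glutamine) and RPS15 0.94 (0.023 with and -0.92 without glutamine); RPL10A was negative at -0.28 (-0.81 with and -0.54 without glutamine), and RPL12 and RPL10 were not called at 0.013 ± 0.025 (SE) and -0.039 ± 0.024 (SE). Many processed copies of these genes exist, and the sources used here do not say how multi-mapped reads were counted. Of 26 ribosome biogenesis genes 16 were positive, 5 negative and 5 not called, and their median of 0.276 turned to -0.057 with library totals alone. NCL, nucleolin, had 0.61 (-0.45 with and -1.06 without glutamine), FBL, fibrillarin, 1.00 (-0.038 with and -1.03 without glutamine), and PES1 and DKC1 were not called at -0.0085 ± 0.041 (SE) and -0.018 ± 0.035 (SE). PES1 changed by -0.84 with glutamine and -0.83 without it, and DKC1 by -0.60 with glutamine and -0.58 without it.

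**Figure D5:**
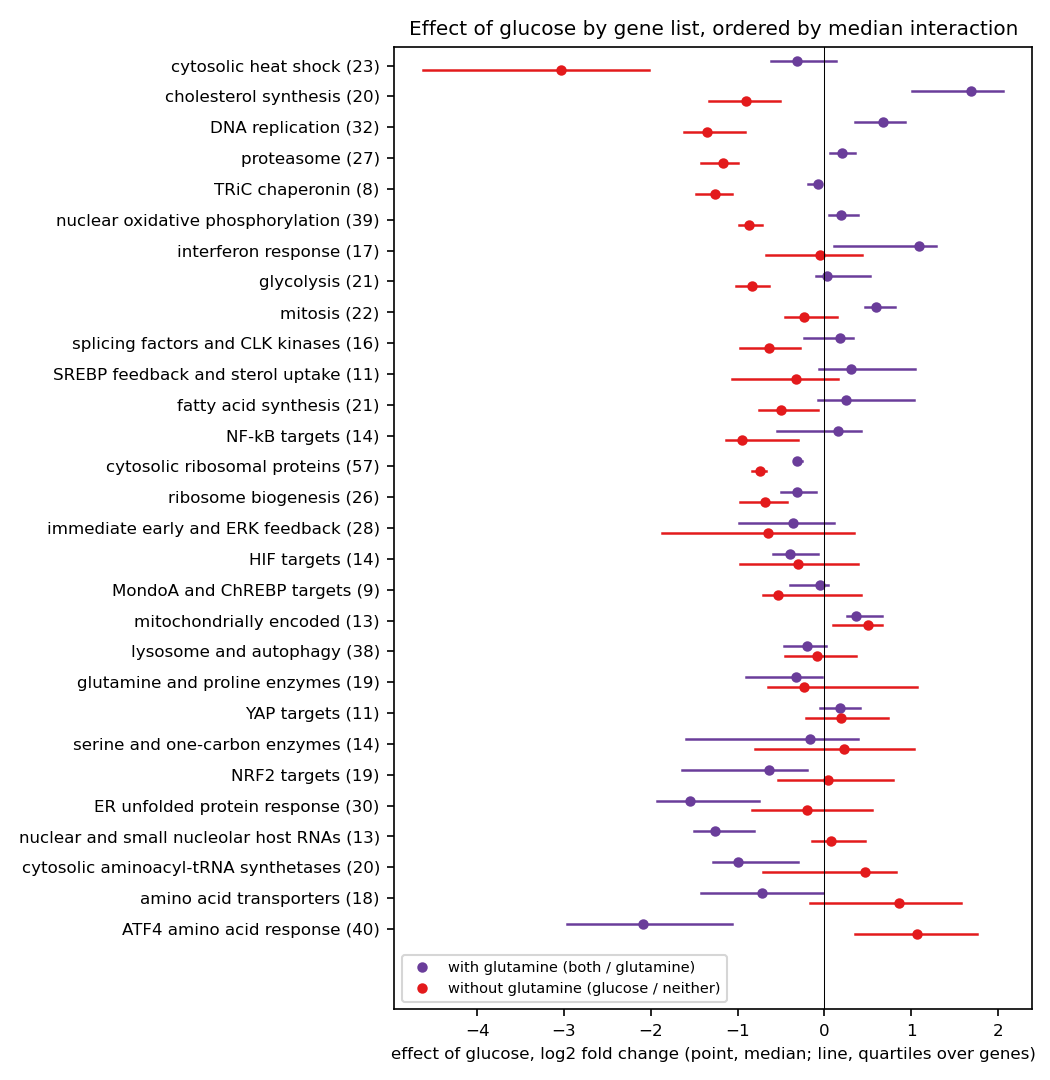
Median (point) and quartiles over genes (line) of the effect of glucose, as log2 fold change, with glutamine (purple, both over glutamine) and without it (red, glucose over neither) for 29 gene lists, ordered by median interaction; the number of tested genes is in brackets. Cytosolic heat shock is at the top with the largest positive median interaction and the ATF4 list at the bottom with the largest negative one.

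Immediate early genes, which respond within minutes to signals, were split. Of 28 tested 16 were positive, 11 negative and 1, ETV4, not called (0.061 ± 0.071 (SE)), so that the negative share was near the 38.2% of all genes; the median of 0.236 turned to -0.098 with library totals alone. JUN had 52.4, 47.9 and 51.4 CPM with both, 94.2, 94.8 and 92.1 CPM with glutamine alone, 108, 108 and 104 CPM with glucose alone and 1726, 1743 and 1785 CPM with neither. Neither stood far above the other media, and the interaction was 3.14 (-0.89 with and -4.03 without glutamine). DUSP1, a phosphatase of stress kinases, and ID3, an inhibitor of helix-loop-helix factors, which is no member of the list, were also apart above with neither, at 3.24 (-1.25 with and -4.49 without glutamine) and 3.23 (0.27 with and -2.95 without glutamine); IER5 had 3.08 (-0.32 with and -3.40 without glutamine) and KLF6 1.96 (0.69 with and -1.27 without glutamine). FOS had 4.53, 4.10 and 4.24 CPM with both, 71.3, 71.8 and 67.0 CPM with glutamine alone, 15.9, 15.3 and 14.5 CPM with glucose alone and 1194, 1191 and 1193 CPM with neither, highest with neither and lowest with both, and glucose lowered it in both settings (-4.03 with glutamine and -6.29 without it; interaction 2.26 ± 0.086 (SE)). EGR1 had 12.4, 11.8 and 12.6 CPM with both, 159, 152 and 154 CPM with glutamine alone, 193, 195 and 189.7 CPM with glucose alone and 579, 592 and 580.2 CPM with neither, the same highest and lowest media, yet its larger fall was with glutamine, so its interaction was negative at -2.05 ± 0.055 (SE) (-3.65 with glutamine and -1.601 without it). DUSP6, a phosphatase of ERK, was negative too, at -2.41 (-0.46 with and 1.95 without glutamine). MYC, a growth factor-responsive transcription factor, had a small interaction of 0.21 (-0.41 with and -0.62 without glutamine), which turned to -0.12 with library totals alone.

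Autophagy and lysosome genes, which form 1 list, had interactions of both signs. Of 38 tested, 19 were negative and 16 positive, which is not far from the 38.2% and 37.1% of all genes; with library totals alone 22 were negative and 8 positive. MAP1LC3B, which coats autophagosomes, had 140.2, 146 and 143 CPM with both, 387, 381 and 372 CPM with glutamine alone, 805, 842 and 842 CPM with glucose alone and 271, 268 and 267 CPM with neither. Glucose alone was highest and both lowest, an interaction of -3.04 (-1.41 with and 1.63 without glutamine). SQSTM1, an autophagy receptor, had -2.08 (-1.15 with and 0.93 without glutamine), GABARAPL1 -1.47 (-0.48 with and 0.98 without glutamine), and FNIP1, a folliculin partner, -2.26 (-0.58 with and 1.69 without glutamine). GLA, a lysosomal galactosidase, was positive with 2.11 (0.15 with and -1.97 without glutamine), and ATP6V0D1, of the vacuolar proton pump, with 1.23 (0.35 with and -0.87 without glutamine). TFEB, a factor that drives lysosomal genes, was not called at 0.40 ± 0.35 (SE) near 1.5 CPM, nor were FNIP2 and ATP6V1B2, at 0.19 ± 0.12 (SE) and -0.11 ± 0.057 (SE).

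Redox genes were mostly negative. Of 19 NRF2 targets 13 were negative, 4 positive and 2 not called (ME1, and AKR1C1 at 0.051 ± 0.63 (SE)). Over all genes 38.2% were negative and 37.1% positive. SLC7A11 of this list is also in the ATF4 and transporter lists. TXNRD1, thioredoxin reductase, had -2.68 (-1.71 with and 0.97 without glutamine), GCLM, a subunit of glutathione synthesis, -1.71 (-1.996 with and -0.28 without glutamine), and NQO1 -1.31 (-0.63 with and 0.68 without glutamine). HMOX1, heme oxygenase, had 23.0, 25.1 and 23.0 CPM with both, 610.5, 619 and 603 CPM with glutamine alone, 46.9, 48.4 and 50.2 CPM with glucose alone and 561, 574 and 579 CPM with neither, high in both media that lacked glucose, with an interaction of -1.13 (-4.69 with and -3.56 without glutamine). The pentose phosphate enzymes PGD and TKT were positive, at 1.25 (0.17 with and -1.08 without glutamine) and 0.38 (-0.23 with and -0.61 without glutamine), of which TKT lost its call with library totals alone.

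Interferon genes leaned to positive interactions: of 17 tested, 11 were positive, 4 negative and 2 not called (IRF1 at 0.29 ± 0.15 (SE) and IFI27 at 0.77 ± 0.51 (SE)). Over all genes 37.1% were positive and 38.2% negative. OAS3, an antiviral synthetase, had 51.0, 51.4 and 48.4 CPM with both, 11.6, 12.2 and 12.2 CPM with glutamine alone, 11.3, 12.9 and 12.4 CPM with glucose alone and 42.4, 42.3 and 42.3 CPM with neither, with both single-nutrient media low and overlapping, and an interaction of 3.86 (2.06 with and -1.80 without glutamine). ISG15, a ubiquitin-like modifier, had 2.51 (1.24 with and -1.27 without glutamine), IFI6 2.54 (1.24 with and -1.29 without glutamine) and IFIH1, a sensor of double-stranded RNA, 1.62 (1.203 with and -0.41 without glutamine). IRF7 and STAT2, transcription factors of the pathway, were negative at -1.47 (-0.997 with and 0.47 without glutamine) and -0.88 (-0.45 with and 0.44 without glutamine). Of 14 NF-kB targets 9 were positive and 2 negative (8 and 4 with library totals alone): BIRC3, an inhibitor of apoptosis, had 2.95 (1.79 with and -1.16 without glutamine) and NFKBIA, the inhibitor of NF-kB, 1.63 (0.74 with and -0.89 without glutamine), while the chemokine gene CXCL2 had -2.41 (-1.58 with and 0.83 without glutamine) and RELB -0.41 (-0.72 with and -0.31 without glutamine).

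Nuclear and small nucleolar host RNAs were all negative where called, 12 of 13, against 38.2% of all genes, with a median of -1.29. NEAT1 (chr11:65422774-65445540, GRCh38), the RNA scaffold of paraspeckles, had 216, 212 and 212 CPM with both, 285, 284 and 289 CPM with glutamine alone, 725, 722 and 725 CPM with glucose alone and 40.1, 36.8 and 41.3 CPM with neither. Glucose alone was highest and neither lowest, with an interaction of -4.62 (-0.42 with and 4.20 without glutamine). SNHG1, GAS5 and EPB41L4A-AS1, hosts or relatives of small nucleolar RNAs, had -2.50 (-1.504 with and 1.00 without glutamine), -1.66 (-1.59 with and 0.075 without glutamine) and -2.23 (-1.85 with and 0.38 without glutamine), and SNHG16 was not called at -0.074 ± 0.052 (SE). In the list of splicing factors of the SR family and their kinases 11 of 16 genes were positive and 2 negative, against 37.1% and 38.2% of all genes, but with library totals alone 9 were positive and 6 negative. Interactions were positive for SRSF2 at 2.17 (0.54 with and -1.63 without glutamine) and SRSF7 at 1.77 (0.56 with and -1.22 without glutamine), against CLK2, a kinase of SR proteins, at -1.88 (-0.42 with and 1.46 without glutamine).

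Hypoxia, YAP and glucose-sensor targets had no single direction. VEGFA, a vessel growth factor, was negative with -3.33 (-2.40 with and 0.93 without glutamine) and ADM, adrenomedullin, positive with 2.56 (-0.069 with and -2.63 without glutamine); of 14 tested hypoxia genes 6 were positive, 5 negative and 3 not called, shares close to the 37.1% and 38.2% of all genes, and the median of 0.226 turned to -0.108 with library totals alone. Among 11 YAP targets 6 were negative, with CCN2 at -1.13 (-0.024 with and 1.11 without glutamine) and AJUBA at -1.35 (0.26 with and 1.603 without glutamine), and 4 positive, with CCN1 at 1.31 (0.80 with and -0.52 without glutamine). The positive share of the YAP list was near the 37.1% of all genes. Of 9 tested targets of the glucose sensors MondoA and ChREBP 4 were positive and 3 negative, not far from the 37.1% and 38.2% of all genes. ARRDC4, an arrestin-domain gene raised by glucose through MondoA, had 1.05, 0.761 and 1.31 CPM with both, 0.659, 0.49 and 0.778 CPM with glutamine alone, 9.38, 8.50 and 8.34 CPM with glucose alone and 0.46, 0.689 and 1.16 CPM with neither. Glucose alone was far above the other media, which overlapped, and the interaction was -2.80 (0.72 with and 3.52 without glutamine). PFKFB2, which sets fructose bisphosphate levels, was negative at -2.31 (-0.69 with and 1.62 without glutamine), and TIPARP positive at 2.22 (0.038 with and -2.18 without glutamine). TXNIP had at most 8 counts in a library and was not tested.

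Genes outside the lists filled the remaining shapes. JADE2 had both apart above, at 678, 211, 213 and 306 CPM with both, glutamine, glucose and neither, and an interaction of 2.21 (1.69 with and -0.52 without glutamine). Glutamine alone lay apart below for ACYP1, CHKA, a choline kinase, PIK3R3, a regulatory subunit of PI3 kinase, and DCAKD, with 2.33 (1.79 with and -0.54 without glutamine), 2.01 (1.61 with and -0.40 without glutamine), 1.84 (1.82 with and -0.023 without glutamine) and 1.62 (1.41 with and -0.21 without glutamine). Glucose alone lay apart below for MAGED1, CALB2, THBS1, thrombospondin, and CDC6, a replication licensing factor, with 2.27 (0.56 with and -1.72 without glutamine), 2.23 (0.51 with and -1.71 without glutamine), 2.00 (-0.19 with and -2.18 without glutamine) and 1.96 (0.11 with and -1.85 without glutamine). It lay apart above for DHRS2, DLGAP1-AS2, KDM6B, a histone demethylase, and TK2, mitochondrial thymidine kinase, with -2.49 (0.21 with and 2.69 without glutamine), -2.46 (0.061 with and 2.52 without glutamine), -2.11 (-0.51 with and 1.599 without glutamine) and -2.03 (-0.32 with and 1.71 without glutamine). Neither lay apart below for ADIRF-AS1, BSN, ZKSCAN1 and CELSR3, with -3.93 (-0.0054 with and 3.93 without glutamine), -3.61 (-0.58 with and 3.03 without glutamine), -3.48 (-0.73 with and 2.75 without glutamine) and -3.38 (-0.40 with and 2.97 without glutamine). DLGAP1-AS2 and ADIRF-AS1 are antisense genes and share the limit on strand, and MSTO2P, a pseudogene with glutamine alone apart above, is uncertain at -1.44 (-1.26 with and 0.18 without glutamine).

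The interaction was not past the threshold for 4123 genes, and 1343 of these had effects of glucose that both passed in the same direction, 738 higher and 605 lower. Those with the largest effects, chosen after their values were seen, included TNFAIP8L1, which averaged 57.8 ± 1.77 CPM with both, 27.3 ± 0.567 CPM with glutamine alone, 57.6 ± 2.98 CPM with glucose alone and 24.8 ± 0.759 CPM with neither (SD, n = 3), with effects of 1.08 with glutamine and 1.22 without it and an interaction of -0.13 ± 0.074 (SE), and ETV1, a transcription factor of the ETS family, with 1.03 with glutamine and 1.09 without it and an interaction of -0.052 ± 0.063 (SE). RPL22L1, a ribosomal protein paralog, changed by -1.46 with glutamine and -1.59 without it, with an interaction of 0.13 ± 0.077 (SE). With library totals alone the interactions of RPL22L1 and SDF2L1 were called negative, at -0.20 and -0.28. Those of NDUFS1, ETV4, MT-CO3, GLUD1 and RPL12, not called with TMM, were called negative as well. A further 10 named genes without a call passed the threshold with that scaling, with the same sign. It lowered the median interaction of all genes by 0.334, and the genes with alike effects were not recounted with it.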

How the data were processed

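The authors deposited raw counts of reads per Ensembl gene in 1 table, with no normalization, for 58395 genes and 15 libraries. HISAT2 2.1.0, Subread 1.5.1, featureCounts and the build GRCh38.p12 appear in the submitters' processing notes. Per the labels' protocols the libraries were made with poly(A) selection and a stranded kit. How strand and multi-mapped reads were treated is not stated there. Names and positions came from GENCODE 29 (GRCh38), which holds 58275 of the gene IDs, and from current symbols.

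The 12 libraries of the 2 by 2 design were fitted with edgeR 4.0.16 in R 4.3.3: TMM scaling, filterByExpr by medium (16682 genes kept), 1 coefficient for each medium (8 residual degrees of freedom) and a robust quasi-likelihood F test, two-sided, with Benjamini-Hochberg adjustment over all genes of a contrast and a threshold of 0.05. The common biological coefficient of variation was 0.0228. The steps were also run on simulated data with that common dispersion for all genes, which does not test genes of larger spread, and no result rests on them. Depths and the CPM of 3 counts stand in the results and cover counting error only. The chi-square per degree of freedom between libraries of a medium was 1.23 to 2.46, and 0 pairs were identical. No batch is given in the labels.

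Members, gene lists and motifs were chosen with earlier results of these data known, so counts over lists are descriptions, and no set test was run. Some lists share genes, so their counts are not separate. The ATF4 list, for example, shares SLC7A11 and SLC6A9 with the transporters, PHGDH and ALDH1L2 with the serine and one-carbon enzymes, and ASNS with the glutamine and proline enzymes. Named genes were the 12 largest positive and 12 largest negative calls averaging 10 CPM or more, the 4 largest of each shape under the same mean, up to 4 genes of each list by smallest p in its main direction and 2 in the other, uncalled members, and a panel of lipid and stress genes. Some genes the rule covers are not reported here. Alternatives were scaling by library totals alone or by DESeq2 size factors, testing all genes or those with 1 CPM or more in 3 libraries, DESeq2 1.42.0 (Wald test), fitting all 15 libraries, a replicate block, testing against a 1.2-fold change, and leaving out each library. Promoters were those of RefSeq.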

Additional observations from a re-analysis of the deposited data

Results flagged for a closer look

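The effect of glucose differed between the media with and without glutamine for 12559 genes by the interaction test of edgeR, and it had opposite called directions for 5206 of them: 2637 rose with glutamine and fell without, and 2569 did the reverse. The directions were counted with TMM scaling and not recounted with library totals alone. Those with large interactions among the first kind included INSIG1 with an interaction of 5.21, DNAJA1 with 4.45 and IDI1 with 4.30. The 4 largest of the second kind among genes averaging 10 CPM or more were GDF15 with -7.53, SLC6A9 with -7.46, SLC7A11 with -7.16 and LURAP1L with -7.10. With 3 libraries per medium, single libraries far from the others could not be tested by a gap rule.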

How the results depend on the processing

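Of the 5932 genes called with an interaction of at least 1, 5922 stayed called in the same direction with DESeq2 size factors, 5816 with library totals alone, 5726 without the low-count filter, 5745 by the DESeq2 Wald test, 5925 of 5930 with all 15 libraries, 5870 in the test against a 1.2-fold change, all 5443 still tested at 1 CPM in 3 libraries, and 5758 to 5834 when a library was left out. 0 had the opposite sign in any of these. Counts of calls stayed within 1.5 times of those reported except for positive interactions of at least 1 with library totals alone (1563) and for glucose with glutamine in the test against a 1.2-fold change (6463). Counts of opposite directions and of media standing apart were not repeated under any alternative. Leaving out a library gave 12401 to 12496 genes with an interaction, 6137 to 6193 positive and 6250 to 6337 negative.

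Library totals alone made 34.0% of the calls positive, against 49.3% with TMM. Medians that turned were -0.098 for immediate early genes, -0.19 for mitochondrially encoded genes, -0.188 for MondoA and ChREBP targets, -0.057 for ribosome biogenesis and -0.108 for hypoxia targets. Genes that turned were PPP1R15A (-0.0017), VIM (-0.019), MYC (-0.12), RPL22L1 (-0.20), NDUFS1 (-0.25), ETV4 (-0.27), SDF2L1 (-0.28), MT-CO3 (-0.28), GLUD1 (-0.31) and RPL12 (-0.32), which lay between 0.013 and 0.33 with TMM. No called interaction of a named gene turned under another alternative. That scaling counts all reads alike, while TMM sets aside the most extreme genes, and which is nearer to RNA per cell was not tested.

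Labels number the libraries of each medium, but equal numbers did not pair them: residual correlations had a median of 0.0018 over 18 pairs with equal numbers and 0.0046 over 36 with different ones, and the best-correlated library of another medium had the equal number for 4 of 12. A replicate block gave 12535 genes with an interaction, and 5911 of the 5932 stayed called in the same direction. Depth limits genes near 1 CPM such as TFEB and AKR1C1, whose interactions have an SE of 0.35 and 0.63.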
